A study of Mus musculus with 6 samples.

Results

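The proteasome is the protease that degrades proteins tagged with ubiquitin. Its 20S core is a barrel of alpha rings around beta rings, and 3 beta subunits, encoded by Psmb5, Psmb6 and Psmb7, carry the cutting sites. The 19S regulatory particle caps the barrel: its base of ATPases unfolds substrates, and its lid holds the enzyme that removes ubiquitin. Under interferon gamma, and constantly in many immune cells, the subunits encoded by Psmb8, Psmb9 and Psmb10 replace the 3 cutting subunits and form the immunoproteasome. In hepatocytes the proteasome is known for clearing short-lived enzymes and regulators, beta-catenin among them.

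The genes described here were the rows of the deposited count table whose symbol begins with Psma to Psmg followed by a digit, 49 of 17275 rows. They were divided by role into 16 core genes, 20 genes of the 19S particle or of other activators and inhibitors, 5 immune genes, 7 assembly chaperones and 1 gene that is no subunit. That last gene, Psmc3ip, encodes a partner of meiotic recombination enzymes and matches the symbol pattern by name alone. The expression filter kept 48 of the 49 genes, and Psmc3ip stays among the 48 in all counts of proteasome genes below. The gene left out was Psmb11, the cutting subunit of the thymus, with 6, 2 and 7 reads in the Axin2-positive libraries and 3, 1 and 4 in the Axin2-negative ones.

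RNA-seq was made from hepatocytes of C57BL/6 mice of the genotype Axin2rtTA;TetO-H2B-GFP, given doxycycline in the drinking water for 7 days. The labels give their age both as 8 weeks and as postnatal day 63. In these mice the Axin2 promoter, a Wnt target, drives the doxycycline-dependent activator, so a nuclear green fluorescent protein marks cells in which it was active during the treatment. Other liver cells were depleted first, and fluorescence then divided the hepatocytes: those with the reporter are called Axin2-positive and those without it Axin2-negative, with 3 libraries of each. Both groups carry both transgenes and both received doxycycline. Each Axin2-positive library shares its sequencing index with 1 Axin2-negative library, which gives 3 pairs. Whether each library is a mouse of its own is not stated in the labels. The p-values therefore cover only the spread between these libraries, part of which may be technical.

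Libraries held 75882611 to 103386648 reads assigned to genes. Levels below are CPM, reads per megaread of the library after TMM scaling, always in the order of pairs 1, 2 and 3. Axin2 itself stood at 2.40, 22.6 and 24.2 CPM in the Axin2-positive libraries and at 3.04, 3.75 and 5.75 CPM in the Axin2-negative ones. The library labelled Axin2-positive 1 thus goes against its label, and values are given pair by pair, with a fit that leaves pair 1 out beside the one over 6 libraries. Ddx3y, on the Y chromosome, had 7164 and 6759 reads in pair 2 and at most 3 reads in any library of pairs 1 and 3. Pair 2 thus held male cells, and the pairs do not all come from the same mouse. The 5 hepatocyte markers checked (among them Alb and Hnf4a) summed to between 83115 and 185571 CPM. Marker sums of other cells were lower in the Axin2-positive library of pairs 2 and 3 than in its partner. For 10 Kupffer cell genes they were 3.16, 0.393 and 4.21 CPM against 3.25, 3.91 and 28.7 CPM. For 11 leukocyte genes they were 1.39, 0.355 and 2.42 CPM against 1.67, 1.68 and 10.2 CPM. Sums of 7 endothelial genes ran from 1.52 to 62.5 CPM, of 5 stellate cell genes from 0.203 to 5.61 CPM and of 5 bile duct genes from 0.174 to 11.5 CPM. Of the leukocyte genes 5 and of the Kupffer cell genes 2 were at 0 in at least 1 library, and Coro1a and Cd79a were at 0 in all 3 Axin2-positive libraries. In the Axin2-negative libraries Coro1a had only 1, 2 and 3 reads and Cd79a 1, 1 and 0. Cd3e had 0, 1 and 1 reads in Axin2-positive and 0, 1 and 0 in Axin2-negative libraries. Counts this low do not separate the groups. The part of such cells in the results below was not tested. Since these are bulk samples, fewer cells of a type and less RNA per cell cannot be told apart.

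Proteasome genes stood higher in the Axin2-positive library in pairs 2 and 3 and near equality in pair 1. The 16 core genes together took 1027, 1433 and 1242 CPM of the Axin2-positive libraries against 1023, 1049 and 897 CPM of the Axin2-negative ones, so that the sum was higher by 0.409%, 36.6% and 38.5% in the 3 pairs. The 20 regulatory genes summed to 1535, 2161 and 1786 CPM against 1534, 1725 and 1439 CPM, higher by 0.0168%, 25.3% and 24.1%. The assembly chaperones summed to 95.4, 127 and 113 CPM against 92.7, 105 and 97.8 CPM, higher by 2.93%, 21.1% and 15.7%. The 5 immune genes summed to 181, 236 and 220 CPM against 184, 188 and 212 CPM, which differed by -1.43%, 25.7% and 3.58%. Sums of this kind are ruled by their most abundant members, and no test was made on them.

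Over all 6 libraries no proteasome gene passed edgeR's quasi-likelihood test with Benjamini-Hochberg adjustment at 0.05, and neither did any of the 12343 genes tested, a background of 0.0%. At an unadjusted p under 0.05 there were 3 proteasome genes of 48 (Psma5, Psmc6 and Psmd5), or 6.25%, against 2.26% of all genes. DESeq2 also called no gene, with 8 of the 48 at an unadjusted p under 0.05, against 3.5% of all genes. With the index pair as a block edgeR again called none, and 10 of the 48 had an unadjusted p under 0.05, against 9.17% of all genes. The edgeR log2 fold change over 6 libraries was above 0 for 44 of the 48, and for 6047 of all 12343 genes. Its median was 0.21 over the 48 beside -0.0047 over all genes.

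Signs within pairs gave the same picture. In pairs 2 and 3 alike, 42 of 48 proteasome genes (87.5%) were higher in the Axin2-positive library, where 35.3% of all genes were. Lower in both were Psma8, Psmb10 and Psmg2, or 6.25%, against 36.5% of all genes. With pair 1 included, 23 of 48 (47.9%) were higher in every pair against 19.5% of all genes, and 2 (Psmb10 and Psmg2, 4.17%) were lower in every pair against 20.1%. Genes whose groups did not overlap were Psma3, Psma4, Psma5 and Psmc6 on the higher side, 8.33% against a background of 3.44%, and Psmg2 on the lower side, 2.08% against 3.77%. Members of one complex are not independent of each other, so these shares are descriptions.

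Pair 1 was close to equality gene by gene. Its log2 differences over the 48 genes had an SD of 0.0554 and a median of 0.0047, with 26 above 0 and 22 below. In pairs 2 and 3 the SDs were 0.285 and 0.254 and the medians 0.35 and 0.28. Over all genes the SDs of pairs 1, 2 and 3 were 0.218, 0.776 and 0.620, so pair 1 was also the least different in general.

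**Figure D1:**
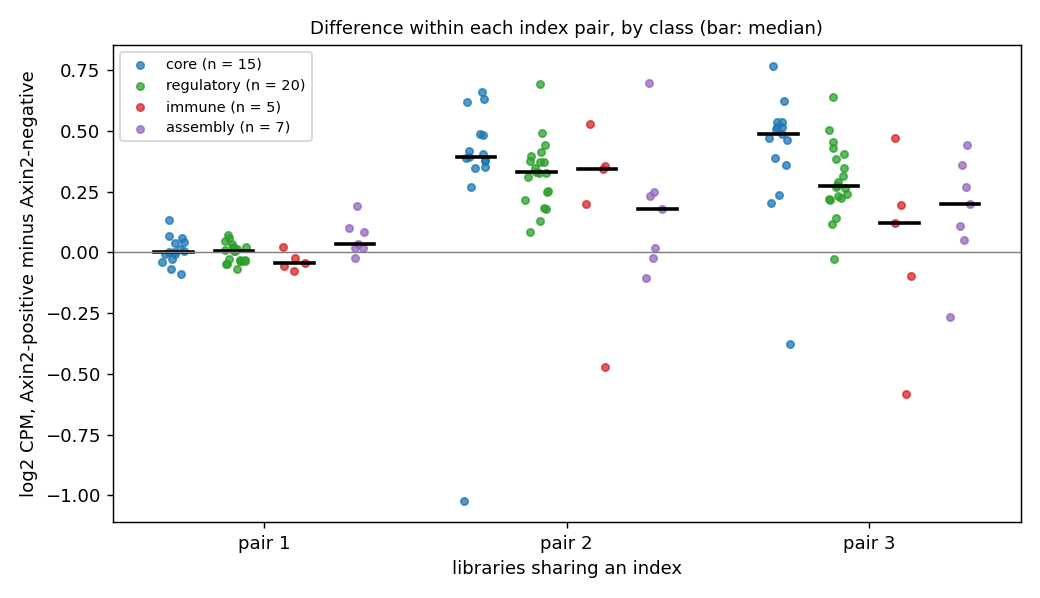
Log2 difference in CPM, Axin2-positive minus Axin2-negative, of each tested proteasome gene (points) within each pair of libraries that share an index, by role class (colours), with the class median as a black bar. Psmc3ip is left out. Pair 1 lies around 0 in all 4 classes, whereas in pairs 2 and 3 the core genes lie highest, at medians of 0.39 and 0.49, with Psma8 below 0.

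A fit of pairs 2 and 3 alone, with the pair as a block, left 1 residual degree of freedom and borrowed its spread from all genes. It was chosen with the Axin2 levels of pair 1 known, so its calls are not independent support. It called 12 proteasome genes higher in Axin2-positive cells, 25.0% of 48, against 3.43% of the 12385 genes it tested. Called lower was Psmb10, 2.08% of 48, against 4.01% of all genes. The 12 higher genes were Psma1, Psma5, Psma6, Psma7, Psmb1, Psmb2, Psmb4 and Psmb7 of the core, Psmc6, Psmd13 and Psmd14 of the 19S particle, and the chaperone Psmd5.

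The alpha ring forms the gate of the barrel. Psma5 was the member with the largest log2 fold change of all, at 51.5, 80.1 and 73.9 CPM in the Axin2-positive libraries and 51.4, 50.7 and 43.4 CPM in the Axin2-negative ones. Its means were 68.5 ± 15.0 against 48.5 ± 4.41 CPM (SD, n = 3), and the groups did not overlap, although Axin2-positive 1 exceeded its partner by only 0.194%. The fitted log2 fold change was 0.50 (SE 0.18), with an edgeR adjusted p of 0.999 over 6 libraries. In pairs 2 and 3 it was 57.9% and 70.0% higher, and the fit of those pairs gave 0.71 (edgeR adjusted p = 0.0163).

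Psma1 stood at 68.3, 109 and 92.8 CPM against 68.0, 71.1 and 64.0 CPM. The low value of Axin2-positive 1 lay inside the Axin2-negative range, and the fold change was 0.41 on the log2 scale over 6 libraries and 0.58 over pairs 2 and 3 (edgeR adjusted p of 0.999 and 0.0306). Psma3 stood at 102, 127 and 113 CPM against 98.9, 96.7 and 82.3 CPM. Its groups did not overlap, yet the 2-pair fit did not call it, at an edgeR adjusted p of 0.0620. Psma4 was the other alpha subunit without overlap, at 93.7, 111 and 108 CPM against 89.5, 87.2 and 91.8 CPM. Psma6 stood at 72.9, 101.4 and 86.1 CPM against 69.9, 76.7 and 60.2 CPM, and Psma7 at 63.1, 89.1 and 83.0 CPM against 66.2, 66.7 and 58.0 CPM. Both were called higher in the 2-pair fit, at log2 fold changes of 0.46 and 0.47 (edgeR adjusted p of 0.0491 and 0.0443), while in pair 1 they differed by 4.25% and -4.63%. Psma2, at 57.5, 78.4 and 68.7 CPM against 57.7, 61.5 and 52.5 CPM, was not called there (edgeR adjusted p = 0.0646).

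Psma8, the alpha subunit of testis proteasomes, went the other way at a trace level. It stood at 0.463, 0.355 and 0.558 CPM against 0.418, 0.771 and 0.741 CPM, and its log2 fold change of -0.49 had an SE of 0.39. Without Psma8, the 14 core genes that passed the filter had log2 fold changes from 0.13 to 0.50 with a median of 0.32. All 14 were higher in the Axin2-positive library in pair 2 and in pair 3, and 7 of 14 were in pair 1.

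**Figure D2:**
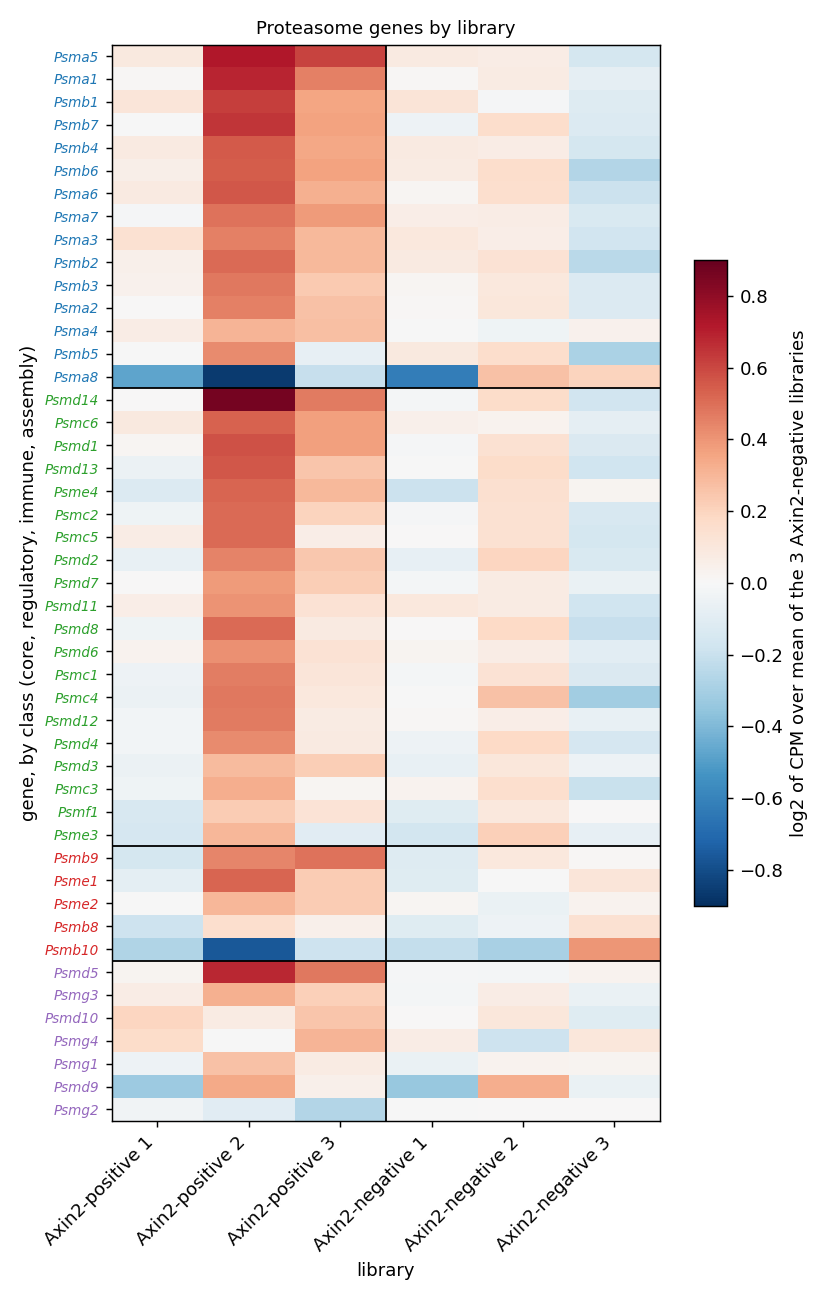
Level of each proteasome gene (rows, in 4 blocks by class) in each library (columns), as log2 of CPM over the mean of the 3 Axin2-negative libraries, so that red is above that mean and blue below. Psmb11 and Psmc3ip are left out. Axin2-positive 2 and 3 are red over almost all core and regulatory rows, Axin2-positive 1 resembles Axin2-negative 1, and Psma8 and Psmb10 are the darkest blue rows of Axin2-positive 2.

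Of the structural beta subunits, Psmb1 stood at 95.2, 136 and 113 CPM against 95.7, 87.7 and 81.4 CPM, with a log2 fold change of 0.38 over 6 libraries and 0.55 over pairs 2 and 3 (edgeR adjusted p of 0.999 and 0.0400). Its Axin2-positive 1 value was the one that overlapped the other group. Psmb4 was at 97.5, 135 and 117 CPM against 97.5, 96.6 and 82.5 CPM, and was also called in the 2-pair fit (0.50, edgeR adjusted p = 0.0435). Psmb2 stood at 46.6, 64.2 and 55.3 CPM against 47.8, 49.5 and 38.1 CPM (0.46, edgeR adjusted p = 0.0457). Psmb3 stood at 57.6, 78.2 and 66.2 CPM against 57.0, 60.1 and 51.6 CPM and was not called (0.37, edgeR adjusted p = 0.0620). All 4 structural beta genes (Psmb1 to Psmb4) were higher in pairs 2 and 3, and 1 of 4 was in pair 1.

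The 3 constitutive cutting subunits were read singly. Psmb7, which cuts after basic residues, stood at 99.3, 155 and 128 CPM against 96.3, 111 and 91.2 CPM. It was higher in each pair, by 3.08%, 40.0% and 40.3%, and was called in the 2-pair fit at a log2 fold change of 0.49 (edgeR adjusted p = 0.0473). Psmb6, which cuts after acidic residues, was at 71.1, 100.1 and 88.0 CPM against 72.4, 76.4 and 57.1 CPM. Its log2 fold change of 0.51 in the 2-pair fit just missed the threshold (edgeR adjusted p = 0.0502).

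Psmb5, which cuts after hydrophobic residues and is the target of bortezomib, showed the smallest difference of the 14. It stood at 50.7, 68.4 and 48.2 CPM against 54.0, 56.7 and 41.8 CPM, with means of 55.7 ± 11.02 and 50.8 ± 7.94 CPM (SD, n = 3). The groups overlapped, and the log2 fold change was 0.13 (SE 0.18) over 6 libraries and 0.24 over pairs 2 and 3 (edgeR adjusted p = 0.142). Whether the 3 cutting subunits differ from each other in their response was not tested.

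**Figure D3:**
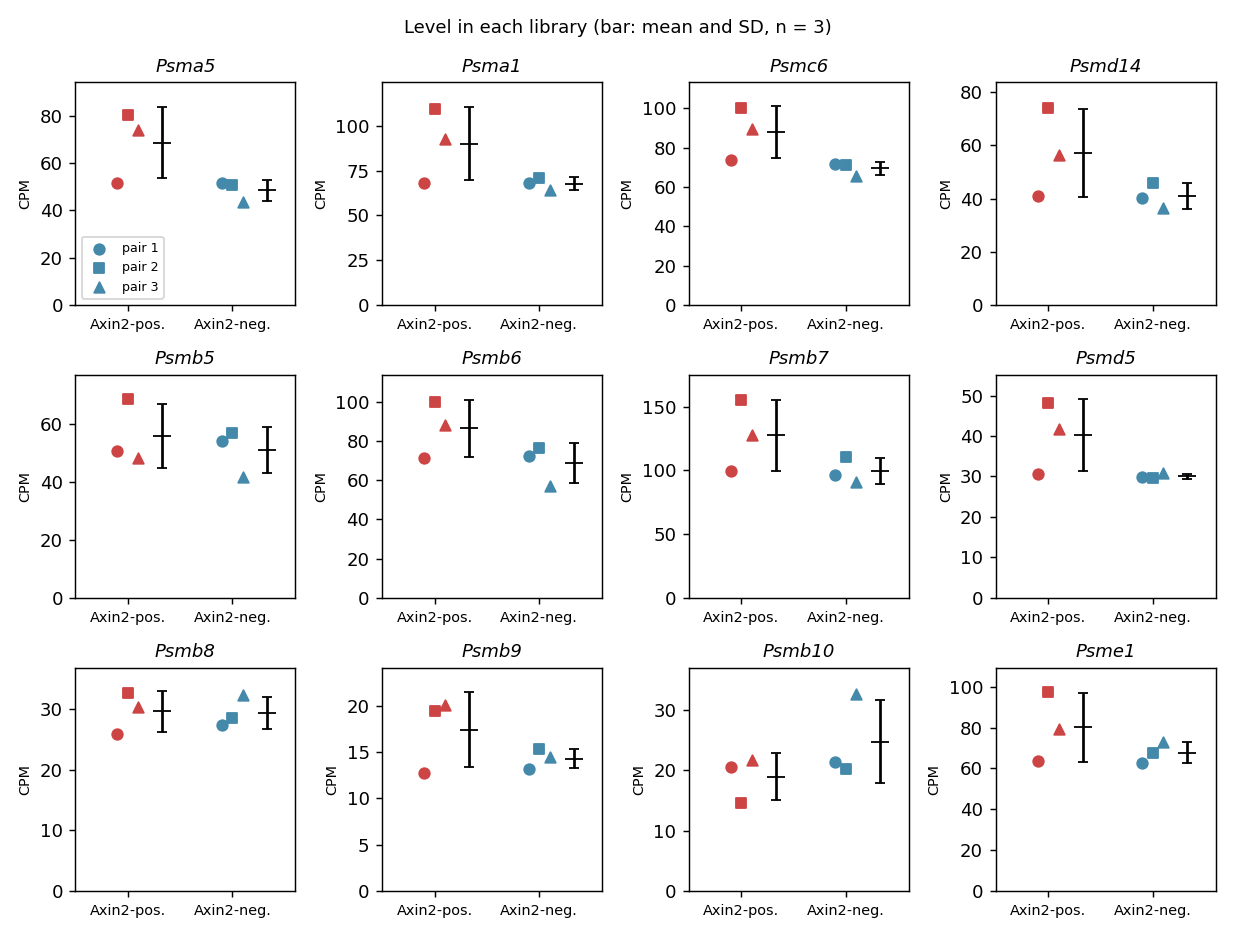
CPM in each library for 12 proteasome genes, with Axin2-positive libraries in red and Axin2-negative ones in blue, a symbol for each index pair, and the mean and SD (n = 3) as a black bar. In Psma5, Psma1, Psmc6 and Psmd14 the squares and triangles of pairs 2 and 3 stand above all Axin2-negative points while the circle of pair 1 does not leave its partner's level; Psmb8 overlaps, and Psmb10 is lowest in Axin2-positive 2.

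In the 19S particle all 17 genes were higher in the Axin2-positive library in pairs 2 and 3, and 9 of 17 were in pair 1. Their log2 fold changes over 6 libraries ran from 0.11 to 0.49 with a median of 0.21. Among the base ATPases, the motor of the particle, Psmc6 and Psmc3 marked the ends. Psmc6 was at 74.0, 100.2 and 89.7 CPM against 71.7, 71.2 and 65.6 CPM, without overlap, with a log2 fold change of 0.34 over 6 libraries and 0.47 over pairs 2 and 3 (edgeR adjusted p of 0.999 and 0.0427). Psmc3 was at 80.0, 103 and 83.4 CPM against 83.9, 91.1 and 71.7 CPM. Its groups overlapped and its log2 fold change was 0.11 (SE 0.15).

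The base also holds scaffold and receptor subunits. Psmd1, a scaffold, stood at 128, 188 and 163 CPM against 125, 138 and 115 CPM, with a 2-pair log2 fold change of 0.47 that was not called (edgeR adjusted p = 0.0563). Psmd2, the other scaffold, stood at 167, 238 and 207 CPM against 166, 199.8 and 159 CPM. Psmd4, a ubiquitin receptor, stood at 72.3, 99.0 and 77.8 CPM against 71.4, 83.4 and 66.2 CPM. In all 3 the Axin2-positive 2 library was the highest of the 6, and each was higher in every pair.

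In the lid, Psmd14 had the largest fold change. It encodes the metalloprotease that cuts ubiquitin chains off the substrate. It stood at 41.0, 74.1 and 56.5 CPM against 40.3, 45.9 and 36.3 CPM, higher by 1.67%, 61.6% and 55.8% within pairs. Axin2-positive 1 fell among the Axin2-negative values, and the log2 fold change was 0.49 (SE 0.23) over 6 libraries and 0.67 over pairs 2 and 3 (edgeR adjusted p of 0.999 and 0.0167). Without the library Axin2-positive 2 the 6-library value of Psmd14 came down to 0.26. Psmd3, the lid gene with the smallest fold change, was at 88.9, 113 and 108 CPM against 88.3, 99.3 and 89.5 CPM, a log2 fold change of 0.16. Psmd13 was the other lid gene called in the 2-pair fit, at 45.7, 70.1 and 56.4 CPM against 47.3, 53.3 and 41.9 CPM (0.41, edgeR adjusted p = 0.0472).

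The other activators behaved less evenly. Psme4 encodes PA200, a nuclear activator that opens the barrel without ubiquitin. It stood at 120.0, 187 and 159.8 CPM against 114, 144 and 133 CPM, higher in each pair, with a log2 fold change of 0.25 that the 2-pair fit did not call (0.32, edgeR adjusted p = 0.124). Psme3, the PA28 gamma activator of the nucleus, was at 50.7, 69.1 and 52.4 CPM against 50.2, 65.2 and 53.5 CPM. Its log2 fold change was 0.03 (SE 0.17), and pair 3 had the other sign than pairs 1 and 2. Psmf1, the inhibitor PI31, stood at 23.7, 30.7 and 28.6 CPM against 24.3, 28.1 and 26.3 CPM.

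The immune genes split. Psmb10 was the one proteasome gene called lower in the 2-pair fit, at 20.6, 14.6 and 21.8 CPM against 21.4, 20.2 and 32.7 CPM. Within pairs the Axin2-positive library differed by -3.95%, -28.0% and -33.4%, and the groups overlapped. Its log2 fold change was -0.39 (SE 0.24) over 6 libraries and -0.53 over pairs 2 and 3 (edgeR adjusted p of 0.999 and 0.0355). The library with the highest Psmb10, Axin2-negative 3, also had the highest Kupffer cell and leukocyte marker sums, and the one with the lowest, Axin2-positive 2, had the lowest of both. The other immune genes had another order. Psmb8, Psme1 and Psme2 were highest in Axin2-positive 2, at 32.6, 97.5 and 71.6 CPM, and Psmb9 in Axin2-positive 3, at 20.0 CPM. Without Axin2-negative 3 the log2 fold change of Psmb10 was -0.13, and without Axin2-positive 2 it was -0.23. The part of those cells in Psmb10 was not tested.

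Psmb8 stood at 25.9, 32.6 and 30.3 CPM against 27.3, 28.5 and 32.3 CPM, with means of 29.6 ± 3.44 and 29.4 ± 2.65 CPM (SD, n = 3). The groups overlapped and the 2-pair fit gave 0.05 on the log2 scale (edgeR adjusted p = 0.784). Psmb9 was at 12.8, 19.4 and 20.0 CPM against 13.2, 15.3 and 14.4 CPM. It was higher by 27.1% and 38.8% in pairs 2 and 3, but its 2-pair log2 fold change of 0.41 was not called (edgeR adjusted p = 0.0682). Psme1 and Psme2 encode the PA28 alpha and beta activator. Psme1 was at 63.6, 97.5 and 79.3 CPM against 62.6, 67.6 and 72.9 CPM, and Psme2 at 58.1, 71.6 and 68.2 CPM against 59.0, 56.0 and 59.6 CPM. In both, Axin2-positive 2 was the highest library, and neither was called in the 2-pair fit, at log2 fold changes of 0.33 and 0.28.

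Each inducible subunit takes the place of 1 constitutive subunit, so their reads were also set in ratio within a library. Reads of Psmb10 per 100 reads of Psmb7 were 20.7, 9.39 and 17.0 in the Axin2-positive libraries and 22.2, 18.3 and 35.9 in the Axin2-negative ones, lower in the Axin2-positive library of each pair. The means were 15.7 ± 5.77 and 25.4 ± 9.24 (SD, n = 3), and the groups overlapped. An exact permutation test of 3 against 3 libraries cannot give a p under 0.05. Without Axin2-negative 3 the difference of the means went from -9.74 to -4.53. For Psmb8 over Psmb5 the ratios were 51.1, 47.7 and 62.8 against 50.6, 50.2 and 77.4, and for Psmb9 over Psmb6 18.0, 19.4 and 22.8 against 18.2, 20.0 and 25.3. Both ratios were lower in the Axin2-positive library of pairs 2 and 3, and pair 3 had the highest values of both. Their differences of the group means, -5.50 and -1.12, turned to 3.50 and 0.938 without Axin2-negative 3. The ratios compare reads, not molecules, because the genes differ in length. A ratio also moves with its constitutive gene. By CPM, Psmb5 was higher by 20.6% and 15.3% in pairs 2 and 3, Psmb6 by 31.1% and 54.2%, and Psmb7 by 40.0% and 40.3%. Psmb8 differed by 14.7% and -6.41%, Psmb9 by 27.1% and 38.8%, and Psmb10 by -28.0% and -33.4%.

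**Figure D4:**
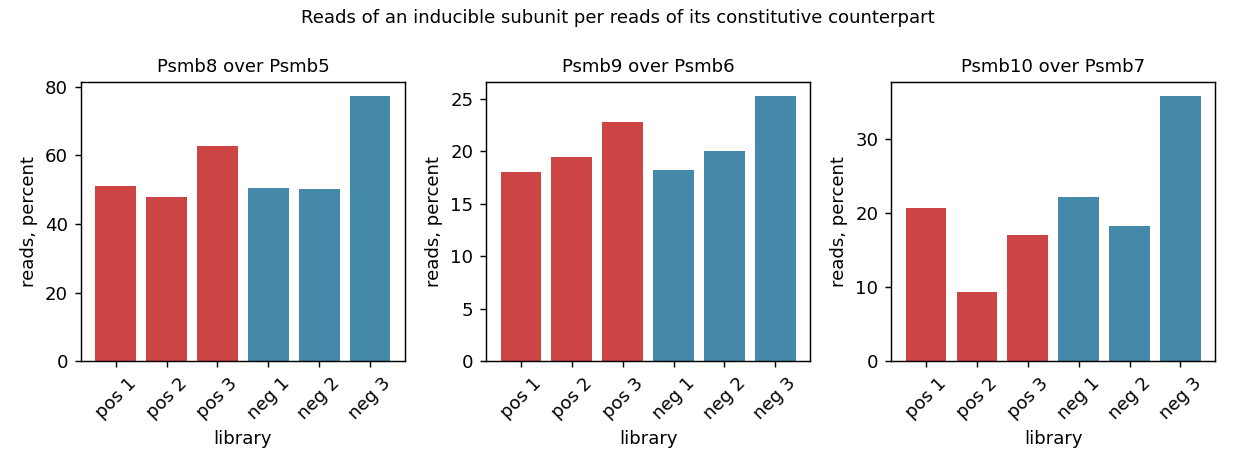
Reads of each inducible cutting subunit as a percentage of the reads of its constitutive counterpart in each library (bars, from 0), Axin2-positive in red and Axin2-negative in blue. Axin2-negative 3 is the highest bar in all 3 panels, and for Psmb10 over Psmb7 the lowest bar is Axin2-positive 2 at 9.39%.

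Psmb8 and Psmb9 lie beside the peptide transporter genes in the major histocompatibility complex. On GRCm38, Psmb9 spans chr17:34181987-34187764 on the minus strand, Tap1 spans chr17:34187553-34197225 and Psmb8 chr17:34197721-34201454, both on the plus strand. The exons of Psmb9 and Tap1 overlap by 212 bases on opposite strands. As the use of strand in counting is not given in the sources used here, reads in that overlap are uncertain. Of the 49 genes, 9 overlap another coding gene. Among them are Psmb7 (405 bases with Nek6) and Psmd13 (342 bases with Sirt3), both called higher in the 2-pair fit.

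The assembly chaperones build the complex and leave it. Psmd5, a chaperone of the 19S base, was at 30.6, 48.1 and 41.8 CPM against 29.8, 29.7 and 30.8 CPM. Values of the Axin2-negative group were nearly equal (30.1 ± 0.606 CPM, SD, n = 3), and Axin2-positive 1 lay among them. Its log2 fold change was 0.42 (SE 0.17) over 6 libraries and 0.57 over pairs 2 and 3 (edgeR adjusted p of 0.999 and 0.0358). Psmg2, a chaperone of the alpha ring, was the exception, at 12.0, 11.5 and 10.3 CPM against 12.3, 12.3 and 12.3 CPM. It was lower in each pair without overlap, with a log2 fold change of -0.13 (SE 0.10) that no fit called. The other alpha ring chaperones stood a little higher in pairs 2 and 3: Psmg1 by 17.3% and 3.71%, Psmg3 by 18.8% and 20.6%, and Psmg4 by 13.5% and 15.0%. Psmd9, a chaperone of the base, followed the pair and not the group, at 18.8, 29.8 and 24.3 CPM against 18.6, 29.4 and 22.6 CPM. Psmd10 (gankyrin), another base chaperone, stood at 9.22, 8.50 and 9.58 CPM against 8.07, 8.65 and 7.46 CPM, lower in pair 2 and higher in pairs 1 and 3.

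Psmc3ip separated the pairs, not the groups. It stood at 4.56, 0.291 and 0.267 CPM against 4.78, 0.187 and 0.228 CPM, with 443 and 457 reads in the libraries of pair 1 and between 15 and 23 in the other 4. Its log2 fold change of -0.02 had an SE of 1.64. Its exons overlap those of Mlx by 385 bases.

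Levels can be compared between genes only per length, for which the authors' deposited table gives 1 FPKM value per transcript and group. The most abundant members in the authors' deposited table were core genes, led by Psmb4 at 159 FPKM in Axin2-positive and 128 FPKM in Axin2-negative cells and Psmb7 at 143 and 112 FPKM. In the authors' deposited table the constitutive Psmb5, Psmb6 and Psmb7 stood well above their inducible counterparts, at 94.8, 97.9 and 143 FPKM against 29.0, 23.5 and 18.9 FPKM for Psmb8, Psmb9 and Psmb10 in Axin2-positive cells. Psmd8 was the most abundant 19S gene there, at 69.8 and 61.5 FPKM, and Psmf1 was at 7.91 and 7.58 FPKM. The authors' deposited table gave its lowest p among these genes to Psma5, 0.02615, with q-values of at least 0.999528 for all.

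Genes of the same pathway that are no Psm genes were read from 4 lists, and none of their 49 tested genes was called over 6 libraries. Of 16 partners of the proteasome (ubiquitin receptors, shuttles, a maturation factor and deubiquitinases), 14 had a log2 fold change above 0, with a median of 0.15. Above 0 were 6047 of all 12343 genes tested. Of the 16 partners, 13 were higher in both pairs 2 and 3, against 35.3% of all genes. Txnl1, a redox protein bound to the 19S particle, was at 91.6, 128 and 95.6 CPM against 89.3, 85.2 and 65.4 CPM, and the 2-pair fit called it at 0.57 (edgeR adjusted p = 0.0324). Shfm1, a small lid subunit under an older symbol, was at 32.2, 40.7 and 36.5 CPM against 32.2, 31.2 and 30.6 CPM. Shfm1 was not called in the 2-pair fit (0.32, edgeR adjusted p = 0.0883).

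Proteasome genes are known to be induced by the transcription factors Nrf1 (Nfe2l1) and Nrf2 (Nfe2l2). The 11 genes of that control had a median log2 fold change of 0.049. Of the 11, 7 were above 0, as were 6047 of all 12343 genes tested. Nfe2l1 stood at 109, 95.6 and 120 CPM against 109, 91.9 and 113 CPM, and its groups overlapped. Nfe2l2 stood at 63.2, 79.6 and 73.1 CPM against 66.2, 53.9 and 66.3 CPM, also with overlap. Within pairs Nfe2l2 differed by -4.54%, 47.6% and 10.2%. The 2-pair fit did not call it (0.35, edgeR adjusted p = 0.150). Of the 2 genes with the lowest p in the list, Ufd1l, a cofactor of the p97 segregase, was at 27.5, 35.7 and 29.8 CPM against 27.2, 29.1 and 25.1 CPM. Mafg, a small Maf partner of both factors, was at 26.8, 26.1 and 28.6 CPM against 27.7, 31.9 and 33.8 CPM. Neither was called in the 2-pair fit.

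The 6 genes of ubiquitin and its activating enzymes had a median log2 fold change of 0.023. Rps27a, which encodes ubiquitin fused to a ribosomal protein, was at 174, 196 and 160.0 CPM against 170.3, 140.2 and 123 CPM, and Uba1, the main activating enzyme, at 201, 203 and 178 CPM against 202, 223 and 189 CPM. Of 16 antigen processing and interferon gamma genes 11 had a log2 fold change below 0, with a median of -0.054. Below 0 were also 6296 of all 12343 genes tested. Tap2, which pumps the peptides into the endoplasmic reticulum, was at 28.7, 28.0 and 25.4 CPM against 30.9, 28.9 and 29.8 CPM, without overlap. Irf8, a factor of immune cells, was near 1 CPM in all libraries, at 1.37, 0.671 and 0.570 CPM against 1.25, 1.21 and 1.41 CPM. No gene of either list was called in the 2-pair fit.

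Since the core and 19S genes stood higher together in pairs 2 and 3, their promoters were searched for 4 motifs on both strands, in RefSeq windows of GRCm38.p6 from 250 bases before to 50 after the start. Of the 49 genes, 41 matched a window by symbol, with 44 windows in all. Without a window were Psma8, Psmb1, Psmb2, Psmb7, Psmc3, Psmd3, Psmd7 and Psmg2. The stretches shown are 1 example of a core gene with a CCAAT box, both core genes that hold the antioxidant response element core, and 2 regulatory genes with the ETS core. Capitals mark the motif named for that gene, on either strand, and others stay in lower case. Each line runs 5′ to 3′ on the strand of the gene.
Psma1 (chr7:114276117-114276256, minus strand): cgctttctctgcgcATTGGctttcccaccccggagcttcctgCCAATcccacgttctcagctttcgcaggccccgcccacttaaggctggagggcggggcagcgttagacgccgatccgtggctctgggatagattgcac
Psmb5 (chr14:54617996-54618135, minus strand): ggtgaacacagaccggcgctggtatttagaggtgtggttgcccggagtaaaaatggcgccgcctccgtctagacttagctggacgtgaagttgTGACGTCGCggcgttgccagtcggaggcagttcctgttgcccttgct
Psmb6 (chr11:70525217-70525356, plus strand): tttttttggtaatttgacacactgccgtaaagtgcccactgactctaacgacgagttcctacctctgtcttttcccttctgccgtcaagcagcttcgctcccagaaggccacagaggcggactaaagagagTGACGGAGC
Psmc2 (chr5:21785135-21785274, plus strand): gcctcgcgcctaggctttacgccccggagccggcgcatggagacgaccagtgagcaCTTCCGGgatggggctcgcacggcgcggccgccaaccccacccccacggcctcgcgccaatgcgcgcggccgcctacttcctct
Psmd2 (chr16:20651512-20651651, plus strand): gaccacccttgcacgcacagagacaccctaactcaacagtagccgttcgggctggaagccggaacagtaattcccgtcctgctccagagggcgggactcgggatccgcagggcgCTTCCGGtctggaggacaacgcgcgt

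The ETS core CCGGAAG, read by a family of factors that includes Gabpa, was in 12 of 18 windows of regulatory genes (66.7%) and in 1 of 13 windows of core genes (7.69%), where 8.86% of all 32851 promoter windows held it. In Psmc2 it begins 84 bases and in Psmd2 26 bases before the start. The CCAAT box, bound by NF-Y, was in 7 of 13 core windows (53.8%) and 27.8% of regulatory ones, against 37.4% of all. Of those 7 windows 1 belongs to Psmb11, which failed the expression filter. In Psma1 it occurs at 126 and at 98 bases before the start. The antioxidant response element core TGACNNNGC, bound by Nrf1 and Nrf2 with a small Maf protein, was in 15.4% of core and 16.7% of regulatory windows, against 12.4% of all, and lies 47 bases before the start in Psmb5 and 9 bases before it in Psmb6. The interferon response core, GAAA and GAAA with any 2 bases between them, was in 1 of 6 windows of immune genes and in 3.44% of all. That window is of Psme1, where the match begins 9 bases after the start. The same core was in 2 of 6 windows of assembly genes (33.3%), 7.69% of core and 5.56% of regulatory windows. None of the 4 motifs contains another. A match is a string of letters, not a measured binding site, and windows of one family are few.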

How the data were processed

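Members and gene lists, and the fit of 2 pairs, were chosen with earlier results of these data known. For 6 libraries the authors deposited raw counts of reads, 1 row per symbol. Per the submitters' processing notes, TopHat2 2.0.11 placed the reads on mm10. Which counter and annotation were used, and whether strand was respected, is not given in the sources used here. The authors also deposited FPKM per transcript and group, with p-values and q-values, from Cuffdiff 2.2.2 per the submitters' processing notes. The transcript with the highest FPKM stood for its gene.

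The test was the quasi-likelihood test of edgeR 4.0.16 (R 4.3.3) on group alone, after filterByExpr and TMM scaling. P-values were adjusted by Benjamini-Hochberg and called under 0.05. The code was run on simulated counts with 1 fixed spread, no index pairs and no library against its label. That run therefore does not measure the power of the test in these data. The SE given with an edgeR log2 fold change is its absolute value over the square root of the test's F statistic. Log2 differences within a pair use CPM plus 0.05. Alternatives were DESeq2 1.42.0, RLE scaling, no filter, the pair as a block, pairs 2 and 3 alone, and leaving out each library. Deviations from the group means correlated at 0.683, 0.819 and 0.755 between libraries of the same index, so the index was taken to pair them.

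Genes named were the cutting and activator genes (Psmb5 to Psmb10, Psme1 to Psme4), the ends of the fold change range in the alpha ring, base ATPases, lid and chaperones, up to 6 genes of lowest p, the 2 of lowest p in each pathway list, and genes that failed the filter or are no subunit. Other members, and Nfe2l1 and Nfe2l2, were named after their values were seen.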

Additional observations from a re-analysis of the deposited data

How the results depend on the processing

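DESeq2, RLE scaling and testing without the expression filter kept the direction and call of all 38 results recomputed. The replicate block turned only Psmc3ip, to a log2 fold change of 0.209, and changed no other call. With the replicate block and 2 pairs only, 425 genes were called higher and 497 lower (0 over 6 libraries), 12 and 1 of them proteasome genes, and Psmc3ip stood at 0.429. Leaving out 1 library at a time gave 0 to 1 genes called higher and 0 to 5 lower, the calls coming without Axin2-positive 1, and no proteasome gene. Class medians then ran from 0.199 to 0.434 for core genes, 0.0819 to 0.298 for regulatory, 0.0773 to 0.262 for immune and 0.118 to 0.230 for assembly genes. The first 3 lows came without Axin2-positive 2. Directions turned in some of these for Psmc3ip (-2.63 to 3.03), Psmb5 (-0.0413 to 0.227), Psmb8 (-0.0657 to 0.0980), Psme3 (-0.128 to 0.147) and Psmc3 (-0.00993 to 0.192), and for the read ratios Psmb8 over Psmb5 (-10.1 to 3.50) and Psmb9 over Psmb6 (-2.60 to 0.938) without Axin2-negative 3. The cause was not tested. Their few reads limit what can be said of Psma8 and Psmb11.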
